A study of Mus musculus with 2 samples.

Results

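The interleukin-1 (IL-1) family is described here through 10 genes. They were chosen by symbol, but with earlier results of these data known. They are the ligands Il1a, Il1b, Il18 and Il33, the receptor antagonist Il1rn, the receptors Il1r1 and Il1rl1, the shared co-receptor Il1rap, the decoy receptor Il1r2 and the processing protease Casp1. All 10 were listed, in 19 of the 33299 transcript rows and among 23183 gene symbols. The RNA came from primary cells labelled as mouse cavernous endothelial cells (MCECs), with a single library for each condition. The HG+HBS culture received high glucose (30 mM by the methods) and the buffer HBS. The HG+PC-NVs culture received the same glucose and 1 µg/mL of PC-NVs, nanovesicles made by pressing cultured mouse cavernous pericytes through filters. The pericytes came from 8-week-old male C57BL/6J mice, and the methods name mice of this strain, sex and age for the study as a whole. The MCECs had grown out of mouse penis tissue and were used at passages 2 to 4, and the number of animals behind each library was not given in the sources used here. For the glucose model, the methods describe 24 hours without serum before the glucose. By the methods, RNA was taken 72 hours after the glucose was added and 24 hours after the PC-NVs, while the labels give 5 days of glucose. Cultures in normal glucose were not analysed here.

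Levels are given as normalized FPKM (fragments per kilobase of transcript, scaled to sequencing depth), after adding up the rows of each symbol. The value of 1 fragment could be read from the low values. On the normalized scale it corresponds to a library size of about 13400000 fragments for HG+HBS and about 11600000 for HG+PC-NVs. Because the values were normalized, these sizes need not equal the numbers sequenced. With 1 library per condition there is no spread between cultures, so no difference below has a replicate check. All intervals are 95% intervals of counting error only.

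The labelled cell type was set against marker lists. Of 12 endothelial markers, 7 were under 1 FPKM in both libraries, with Kdr at 0.518 FPKM with HG+HBS and 0.438 FPKM with HG+PC-NVs and Vwf at 0.158 and 0.128 FPKM, and Pecam1 was at 1.05 and 0.938 FPKM. The other 4 were higher, with Eng at 29.0 and 21.4 FPKM, Esam at 17.4 and 11.7 FPKM, Egfl7 at 9.48 and 8.58 FPKM and Cdh5 at 5.05 and 5.73 FPKM. The 7 fibroblast markers ranged from 45.4 to 623 FPKM with HG+HBS and from 36.3 to 1283 FPKM with HG+PC-NVs. Dcn, at 623 and 1283 FPKM, was higher past 2-fold, and the other fibroblast markers were lower in HG+PC-NVs without passing 2-fold. Most endothelial markers, though not all, were thus near or below 1 FPKM in cells that carry an endothelial label. Of 9 pericyte and smooth muscle markers, 8 were tested, of which 2 were higher past 2-fold (Rgs5, at 1.69 and 7.23 FPKM, and Kcnj8, at 7.98 and 20.4 FPKM) and 2 lower (Acta2, at 27.6 and 8.02 FPKM, and Tagln, at 17.3 and 7.34 FPKM). Their summed level was 116 FPKM with HG+HBS and 92.7 FPKM with HG+PC-NVs. Of 13 macrophage and monocyte markers, all tested, 3 were more than 2-fold higher and 2 more than 2-fold lower in HG+PC-NVs. Beside the counts in these lists, 2.52% of all tested symbols were more than 2-fold higher and 0.867% lower. The summed level of the 13 macrophage and monocyte markers was 387 FPKM with HG+HBS and 600.0 FPKM with HG+PC-NVs. That difference in the sum was carried by Cd14, the lipopolysaccharide co-receptor, at 36.6 and 252 FPKM. The other 12 summed to 350.0 and 348 FPKM, with Lyz2 the largest part at 212 and 193 FPKM, and 7 of them had ratios below 0. Those sums hide differences in both directions. Adgre1 (7.44 and 42.5 FPKM) and Aif1 (2.93 and 12.9 FPKM) were higher past 2-fold. Fcgr3 (14.7 and 6.48 FPKM) and Mrc1 (3.76 and 1.27 FPKM) were lower past 2-fold. Ptprc, the pan-leukocyte marker, was at 1.44 and 1.68 FPKM. The 5 neutrophil markers summed to 0.503 FPKM with HG+HBS and 6.58 FPKM with HG+PC-NVs, of which S100a9 made up 5.96 FPKM, and the other 4 were under 1 FPKM in both. The part of these cells in the values of Il1a, Il1b and the other members was not tested, and a change in the number of a cell type cannot be told apart from a change in RNA per cell in such bulk libraries.

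IL-1 family ligands are cytokines of injury and infection. IL-1α and IL-1β bind IL-1R1, which then recruits IL-1RAP and signals through MyD88 and IRAK kinases to NF-κB. IL-33 uses the same co-receptor with ST2, the product of Il1rl1, while IL-18 has receptors of its own. The pathway has several brakes: the antagonist IL-1RN occupies IL-1R1 without signalling, IL-1R2 binds ligand but lacks the signalling domain, and soluble ST2 captures IL-33. IL-1β and IL-18 are made as inactive precursors that caspase-1 cleaves, whereas full-length IL-1α and IL-33 are active when damaged cells release them.

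The members differed widely in level. Il1rl1 stood at 334 FPKM with HG+HBS, rank 210 of the 23183 symbols, and at 596 FPKM with HG+PC-NVs, rank 147. Il33, Il1r1, Il1rn and Il1rap followed at 13.7 to 44.4 FPKM with HG+HBS and 24.7 to 69.1 FPKM with HG+PC-NVs. Il18 and Casp1 lay at 2.14 to 4.32 FPKM over both libraries. Il1a, Il1b and Il1r2 were below 1 FPKM with HG+HBS, and Il1r2 also in HG+PC-NVs. In HG+HBS, the counting intervals overlapped for Il1r1 (23.0 to 25.4 FPKM) and Il1rn (20.6 to 26.8 FPKM), for Casp1 and Il18, and among Il1r2, Il1a and Il1b. In HG+PC-NVs, Il1rap (24.9 to 28.9 FPKM) and Il1rn (21.4 to 28.3 FPKM) overlapped, as did each neighbouring pair from Il18 through Casp1, Il1a and Il1b down to Il1r2, so these neighbours in the order could not be separated.

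**Figure D1:**
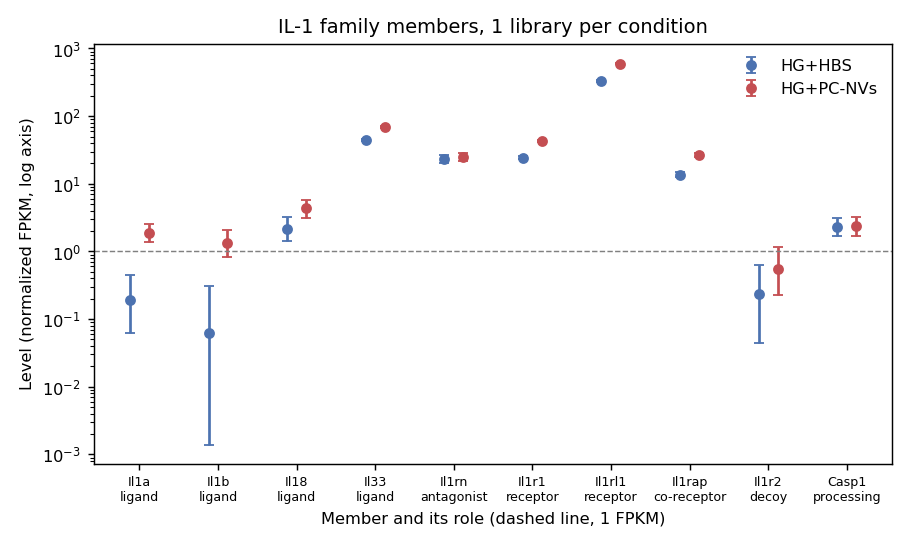
Level of each IL-1 family member in normalized FPKM on a log axis, 1 point per library, with 95% Poisson intervals of counting error as bars. Il1rl1 is the highest point in both libraries, at 334 and 596 FPKM. The intervals of Il18, Il1rn, Il1r2 and Casp1 overlap between the libraries, and those of the other members do not.

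Every difference below is a log2 ratio of (FPKM + 1), HG+PC-NVs over HG+HBS, unless a plain FPKM ratio is named. A symbol was tested where it reached 1 FPKM in at least one library, which 12109 symbols and 9 of the 10 members did. Past 2-fold, 2 members were called higher in HG+PC-NVs, Il1a and Il1b, and 0 lower. Of all tested symbols, 2.52% were called higher and 0.867% lower. Both called members reached the filter only through HG+PC-NVs, which by itself fixes the direction of their difference, so that count is not read as a result about the members. The split over all symbols was 305 higher and 105 lower (74.4% higher), against 186 and 288 (39.2% higher) after upper-quartile scaling of values above 0, which puts the median of all tested symbols at -0.334. HG+HBS has 25907 rows above 0 and HG+PC-NVs has 22159, and with that scaling limited to rows above 0 in both libraries the split was 284 and 112.

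Most other members lay above the median of all symbols, which was -0.0099, without passing 2-fold. The 9 tested members all had a ratio above 0, against 48.3% of all tested symbols, although Il1rn and Casp1 had ratios below 0 after upper-quartile scaling. Past 1.5-fold, 7 of the 9 were higher in HG+PC-NVs, against 5.67% of all. Both counts include Il1a and Il1b, whose direction the filter fixed. Of the 7 members at 1 FPKM or more in both libraries, for which the filter does not favour a direction, 5 were more than 1.5-fold higher, against 4.72% of the 11437 such symbols. These 5 were Il18, Il33, Il1r1, Il1rl1 and Il1rap. Upper-quartile scaling of values above 0 left 0 of the 7 past 1.5-fold, against 2.23% of all symbols, with log2 ratios from 0.27 for Il33 to 0.58 for Il1rap. Il33 also fell short of 1.5-fold after quantile normalization and with its highest row alone, which left 4 of the 7. The remaining members, Il1rn and Casp1, sat near 0.

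**Figure D2:**
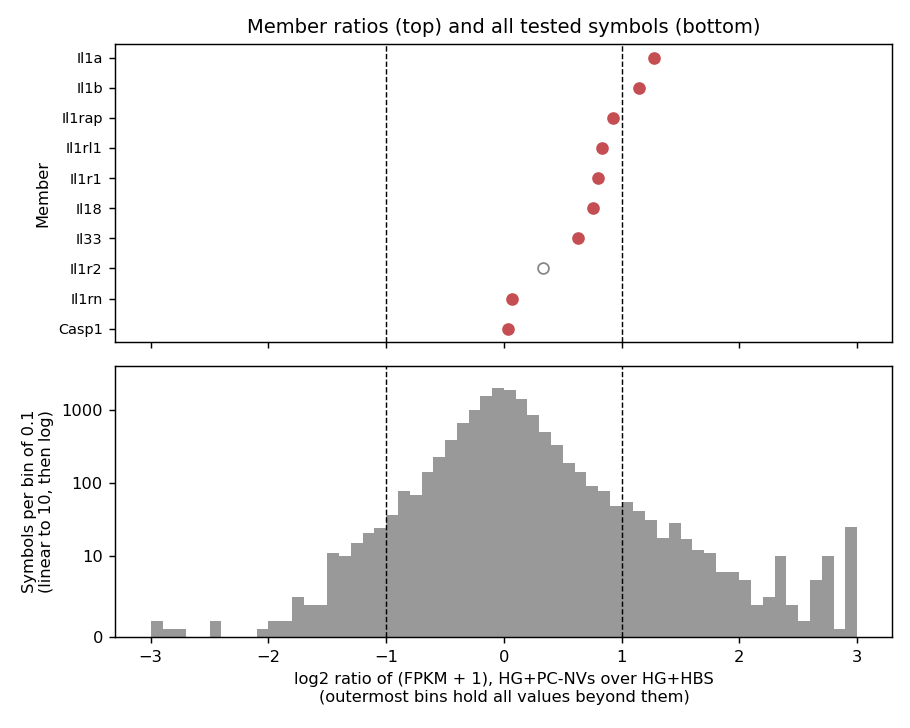
Top panel, log2 ratio of (FPKM + 1), HG+PC-NVs over HG+HBS, of each IL-1 family member, with Il1r2, which was not tested, as an open point. Bottom panel, the same ratio for the 12109 tested symbols in bins of 0.1, with 2-fold marked by dashed lines: Il1a (1.27) and Il1b (1.14) lie past the upper line, and Il1rn (0.065) and Casp1 (0.038) lie in the middle of the distribution.

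Il1a and Il1b are neighbouring genes that lie on chromosome 2 of GRCm38, both on the reverse strand (Il1a from 129299610 to 129309972, Il1b from 129364570 to 129371139). Both were scarce with HG+HBS and low in HG+PC-NVs. Il1a was at 0.193 FPKM with HG+HBS, about 5.10 fragments, and at 1.89 FPKM with HG+PC-NVs, about 43.1 fragments. Its log2 ratio was 1.27, rank 183 of the 12109 tested symbols, and its plain FPKM ratio was 9.76 (Wilson interval 4.05 to 24.3). Il1b was at 0.0615 FPKM with HG+HBS, which is 1.11 fragments and below a floor of 3, and at 1.34 FPKM with HG+PC-NVs, about 21.1 fragments. Its log2 ratio was 1.14, rank 234, and its plain FPKM ratio was 21.9 with a wide interval (4.14 to 142) because of that single fragment. With 1 FPKM required in both libraries, neither gene could be compared. Each gene overlaps the exons of an antisense gene, and whether the authors counted by strand was not given in the sources used here. Il1bos, antisense to Il1b, was listed at 0 FPKM in both libraries, and Gm14023, antisense to Il1a, was at 0.172 FPKM with HG+HBS and lower in HG+PC-NVs.

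The 250 bases upstream of each RefSeq start are shown for these genes, the members past 2-fold. Capitals mark TATAAA and TGANTCA, the latter being the AP-1 motif.
Il1a, GRCm38.p6 chr2:129309973-129310222, reverse strand: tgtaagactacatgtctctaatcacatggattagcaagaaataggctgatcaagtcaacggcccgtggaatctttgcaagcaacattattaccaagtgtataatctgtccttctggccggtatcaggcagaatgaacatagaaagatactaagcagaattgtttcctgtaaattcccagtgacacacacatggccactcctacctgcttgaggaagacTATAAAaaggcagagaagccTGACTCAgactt
Il1b, GRCm38.p6 chr2:129371140-129371389, reverse strand: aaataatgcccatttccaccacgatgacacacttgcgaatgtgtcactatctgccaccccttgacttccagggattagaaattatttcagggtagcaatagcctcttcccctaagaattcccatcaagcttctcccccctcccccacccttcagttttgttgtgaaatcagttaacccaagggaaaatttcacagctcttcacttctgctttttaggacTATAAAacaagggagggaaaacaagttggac
TATAAA ends 27 bases before the start in Il1a and 26 bases before it in Il1b, and occurs on the gene's strand in 7.59% of 32851 such windows. It was added after the sequences had been read. TGANTCA, searched on both strands (it reads alike on both), lies 6 bases before the Il1a start and occurs in 6.75% of windows. The κB consensus of NF-κB, searched on both strands, was in neither window and in 7.25% of all, and TTGCNNAA, a C/EBP motif searched on both strands, was in neither and in 9.56% of all. Over the 15 windows of the 10 members, the κB consensus matched in 1 (Il1r1), TGANTCA in 2 (Il1a and Il1rn) and TTGCNNAA in 3 (Il1r1, Il1rl1 and Il33). TATAAA matched in 4 (of Il1a, Il1b and Il33), and 1 match in Il33 ended 24 bases before the start, so this placement is not particular to Il1a and Il1b. A match here is a match of letters only.

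Il33 and Il18 were the ligands at 1 FPKM or more in both libraries. Il33 (chromosome 19, 29925114 to 29960718), a nuclear alarmin of stromal and barrier cells, was at 44.4 FPKM with HG+HBS and 69.1 FPKM with HG+PC-NVs. This is a log2 ratio of 0.63 and a plain FPKM ratio of 1.56 (Wilson interval 1.46 to 1.67). Il18 (chromosome 9, 50554827 to 50581840), whose product induces interferon-γ in lymphocytes, was at 2.14 FPKM with HG+HBS and 4.32 FPKM with HG+PC-NVs, or about 24.6 and 43.0 fragments. The log2 ratio of Il18 was 0.76, and its plain FPKM ratio was 2.02 (1.22 to 3.23). By these ratio intervals both ligands were higher in HG+PC-NVs by more than the counting error, and both stayed under 2-fold on the log2(FPKM + 1) scale. The level intervals of Il18, 1.41 to 3.21 FPKM with HG+HBS and 3.13 to 5.82 FPKM with HG+PC-NVs, slightly overlapped.

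The antagonist Il1rn (chromosome 2, 24336853 to 24351494) was at 23.6 FPKM with HG+HBS and 24.7 FPKM with HG+PC-NVs. Its log2 ratio was 0.065, or -0.283 after the upper-quartile scaling that puts the median of all symbols at -0.334, and its plain FPKM ratio was 1.05 (0.869 to 1.26). The interval includes a ratio of 1, so no difference was detectable. In both libraries Il1rn exceeded the sum of Il1a and Il1b, which was 0.255 FPKM with HG+HBS and 3.23 FPKM with HG+PC-NVs. With HG+HBS that sum rests on the few fragments given above, so no quotient is drawn from it.

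Il1rl1 was the most abundant member. It encodes ST2, known from mast cells and type 2 lymphocytes and also made by fibroblasts and endothelium. It lies on chromosome 1 from 40429570 to 40465415. It was at 334 FPKM with HG+HBS and 596 FPKM with HG+PC-NVs, with a log2 ratio of 0.84 and a plain FPKM ratio of 1.79 (1.73 to 1.85). The 6 mast cell markers and the 6 lymphocyte markers were each under 1 FPKM in both libraries, with Fcer1a, Cd3e and Cd2 at 0. Il1r1, the receptor of IL-1α and IL-1β (chromosome 1, 40225080 to 40317257), was at 24.1 FPKM with HG+HBS and 42.7 FPKM with HG+PC-NVs. For Il1r1 the log2 ratio was 0.80 and its plain FPKM ratio 1.77 (1.66 to 1.88). Among symbols with a mean level of 20 to 100 FPKM, 95% had a log2 ratio below 0.599, so Il1r1, Il33 and Il1rap lay in the upper tail of that class, while Il1rl1 lay below the 0.917 that marks the same tail from 100 to 1000 FPKM.

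Il1rap, the co-receptor that IL-1R1 and ST2 share, was at 13.7 FPKM with HG+HBS and 26.9 FPKM with HG+PC-NVs. Its log2 ratio, 0.93, was the highest among the members at 1 FPKM or more in both libraries, and its plain FPKM ratio was 1.97 (1.74 to 2.22). The gene lies on chromosome 16 from 26581704 to 26730117, and its exons overlap those of Gm20319 on the other strand, which was at 5.09 FPKM with HG+HBS and 12.7 FPKM with HG+PC-NVs. The part of Gm20319 in the value of Il1rap was not tested. Receptor and co-receptor kept similar proportions: Il1r1 over Il1rap was 1.76 with HG+HBS and 1.59 with HG+PC-NVs, and Il1rl1 over Il1rap was 24.4 and 22.2. The decoy Il1r2 (chromosome 1, 40074079 to 40125231) was at 0.238 FPKM with HG+HBS and 0.557 FPKM with HG+PC-NVs, about 3.35 and 6.80 fragments. Its plain FPKM ratio of 2.34 had an interval from 0.759 to 9.55, and no difference could be detected at this depth.

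Casp1 (chromosome 9, 5298517 to 5307265) was at 2.28 FPKM with HG+HBS and 2.36 FPKM with HG+PC-NVs, about 45.5 and 41.0 fragments. Its log2 ratio was 0.038, or -0.216 after the same upper-quartile scaling, and its plain FPKM ratio was 1.04 (0.677 to 1.56). A difference of up to about 1.5-fold in either direction lies inside this interval.

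Of the 10 members, 5 have more than 1 transcript row. The rows carry no transcript identifiers, so they are numbered here by their level with HG+HBS and cannot be matched to isoforms such as soluble and membrane ST2. Il1rl1 has 3 rows, at 281, 53.0 and close to 0 FPKM with HG+HBS and at 517, 79.1 and 0 FPKM with HG+PC-NVs. The highest row made up 84.1% of Il1rl1 with HG+HBS and 86.7% with HG+PC-NVs, so its makeup was similar in both. Il1rap has 4 rows, of which the highest, at 11.6 and 23.4 FPKM, made up 85.1% and 87.2% of the gene. In Il1r1, Il33 and Il1rn the second row took a larger share in HG+PC-NVs. The second row of Il1r1 was at 1.77 FPKM with HG+HBS and 8.44 FPKM with HG+PC-NVs, 7.32% and 19.8% of the gene. The second row of Il33 was at 2.05 FPKM with HG+HBS and 7.47 FPKM with HG+PC-NVs, 4.62% and 10.8% of the gene. The second row of Il1rn was at 0.681 FPKM with HG+HBS and 2.09 FPKM with HG+PC-NVs, while its first row was at 22.9 and 22.6 FPKM. How the authors' software shared reads between rows carries an error that these files do not give.

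**Figure D3:**
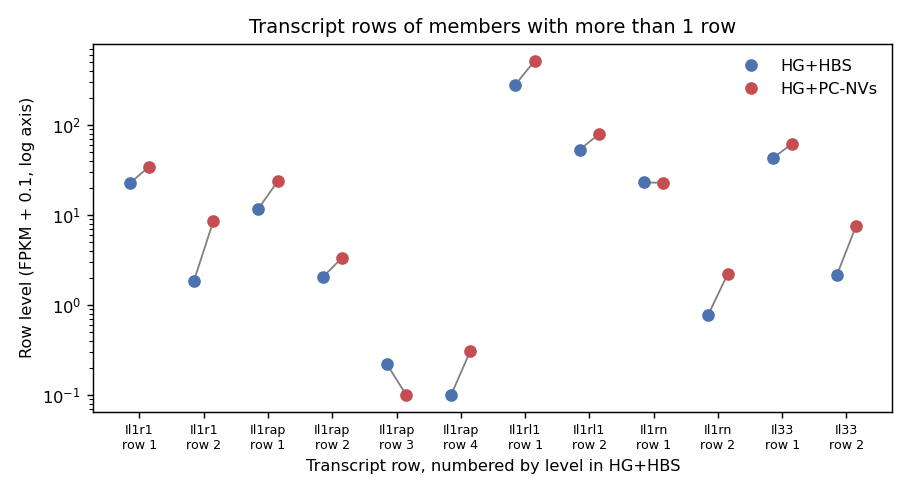
Level of each transcript row of the 5 members with more than 1 row, as FPKM + 0.1 on a log axis, with lines joining the libraries; rows at or under 0.05 FPKM in both libraries are left out. The second rows of Il1r1, Il33 and Il1rn have steeper lines than the first rows of these genes, and the first row of Il1rn is level at 22.9 and 22.6 FPKM. Row 3 of Il1rap falls and its row 4 rises steeply, both at 0.21 FPKM or less.

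Il1r2, Il1r1 and Il1rl1 belong to a receptor cluster on the forward strand of chromosome 1, in the order Il1r2, Il1r1, Il1rl2, Il1rl1, Il18r1 and Il18rap. Levels within it ranged from 0.238 FPKM for Il1r2 in HG+HBS to 596 FPKM for Il1rl1 with HG+PC-NVs. Il1rl2, the IL-36 receptor, was at 2.56 FPKM with HG+HBS and 3.59 FPKM with HG+PC-NVs. Il18r1, the chain that binds IL-18, was at 0.534 and 0.612 FPKM, although it starts just past the end of Il1rl1. Its partner Il18rap was at 15.5 FPKM with HG+HBS and 22.2 FPKM with HG+PC-NVs, with a log2 ratio of 0.49. The IL-18 receptor chains were therefore present at unequal levels in both libraries. None of these 3 passed 2-fold.

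**Figure D4:**
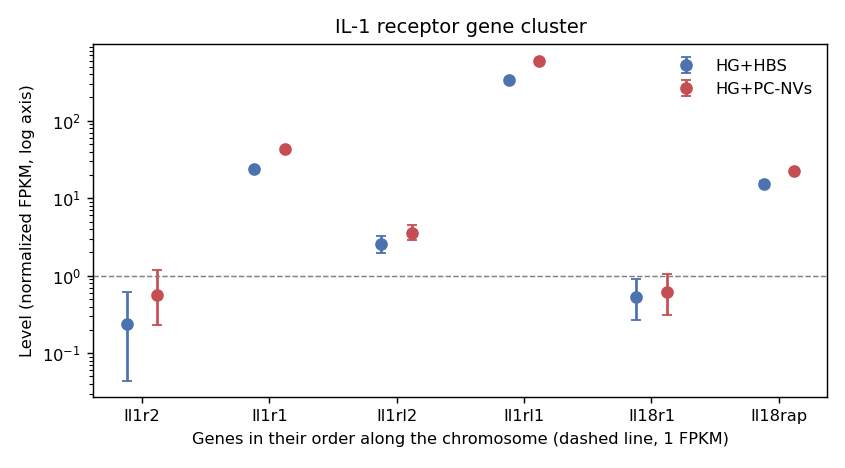
Level in normalized FPKM on a log axis of the 6 receptor genes in their order along chromosome 1, 1 point per library, with 95% Poisson intervals of counting error. Il1rl1 stands at 334 and 596 FPKM between Il1rl2 (2.56 and 3.59 FPKM) and Il18r1 (0.534 and 0.612 FPKM).

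The other genes of the family and pathway were taken from lists written with earlier results of these data known. Among further ligands, the IL-36 genes and Il1f10, 5 symbols were listed and 0 reached 1 FPKM. Il1f9, the older symbol of IL-36γ, was at 0.235 FPKM with HG+HBS and 0.716 FPKM with HG+PC-NVs, about 5.18 and 13.6 fragments, and the other 4 were at or near 0. Il1rapl1, Il1rapl2 and Sigirr, an inhibitory receptor, were each under 0.08 FPKM in both libraries. Il18bp, a soluble inhibitor of IL-18, was at 5.88 FPKM with HG+HBS and 12.5 FPKM with HG+PC-NVs, with a log2 ratio of 0.97 just under the threshold. Il18bp over Il18 was 2.75 with HG+HBS and 2.89 with HG+PC-NVs. The plain FPKM ratio was 2.12 (1.71 to 2.64) for Il18bp and 2.02 (1.22 to 3.23) for Il18. With about 24.6 and 43.0 fragments, the interval of Il18 is too wide to show whether ligand and inhibitor RNA kept their proportion.

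Among 18 genes of receptor-proximal signalling, all tested, 1 was called higher and 0 lower, which is near the 2.52% and 0.867% of all tested symbols, and the median log2 ratio was 0.074. The called gene was Irak3, which encodes IRAK-M, an inhibitor of signalling by IL-1 and Toll-like receptors. It was at 3.79 FPKM with HG+HBS and 15.6 FPKM with HG+PC-NVs, a log2 ratio of 1.79 and a plain FPKM ratio of 4.11 (3.42 to 4.94). The adaptor Myd88 had a log2 ratio of 0.29, and the kinases Irak1, Irak2 and Irak4 had -0.064, 0.40 and 0.005. The level of the inhibitor thus differed by more than that of the kinases and the adaptor in these libraries.

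Of 19 genes of inflammasomes and processing, 10 were tested, with a median log2 ratio of -0.020. Of these 10, 0 were called in either direction, which is near the 2.52% higher and 0.867% lower of all tested symbols. Casp4, the murine caspase-11 that senses lipopolysaccharide, came closest, at 32.6 FPKM with HG+HBS and 65.6 FPKM with HG+PC-NVs (log2 ratio 0.99). Gsdmd, the pore-forming gasdermin, was at 21.9 and 31.9 FPKM (0.53), and Pycard, the adaptor ASC, at 6.11 and 5.92 FPKM (-0.040). The sensor Nlrp3 stayed under the filter, at 0.125 FPKM with HG+HBS and 0.666 FPKM with HG+PC-NVs.

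Among 30 genes that IL-1 is known to induce in many cell types, 29 were tested, 23 were called higher and 0 lower, with a median log2 ratio of 2.11, where 2.52% of all tested symbols were called higher. Of the 23, 6 (Cxcl1, Cxcl2, Cxcl5, Ccl20, Csf3 and Nos2) reached the filter only through HG+PC-NVs, which fixes their direction. Among the 23 genes of the list at 1 FPKM or more in both libraries, 17 were called higher, with a median of 1.59, against 1.91% of all such symbols. The list was written knowing that inflammatory genes were high in HG+PC-NVs, and other stimuli induce the same genes, so its count is a description. The furthest from 0 were Saa3 (7.32), Csf3 (6.77), Cxcl1 (6.05), Lcn2 (4.84), Il6 (4.46) and Lif (3.21), of which Csf3 and Cxcl1 were below 1 FPKM with HG+HBS, Cxcl1 at 1.51 fragments. Il6 was at 1.09 FPKM with HG+HBS and 45.1 FPKM with HG+PC-NVs. The 6 tested genes that stayed under 2-fold were Nfkb1, Nfkb2, Icam1, Vcam1, Sele and Selp, with log2 ratios from 0.40 to 0.83. The receptors and ligands at 1 FPKM or more in both libraries lay nearer to these 6 than to the induced cytokines.

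**Figure D5:**
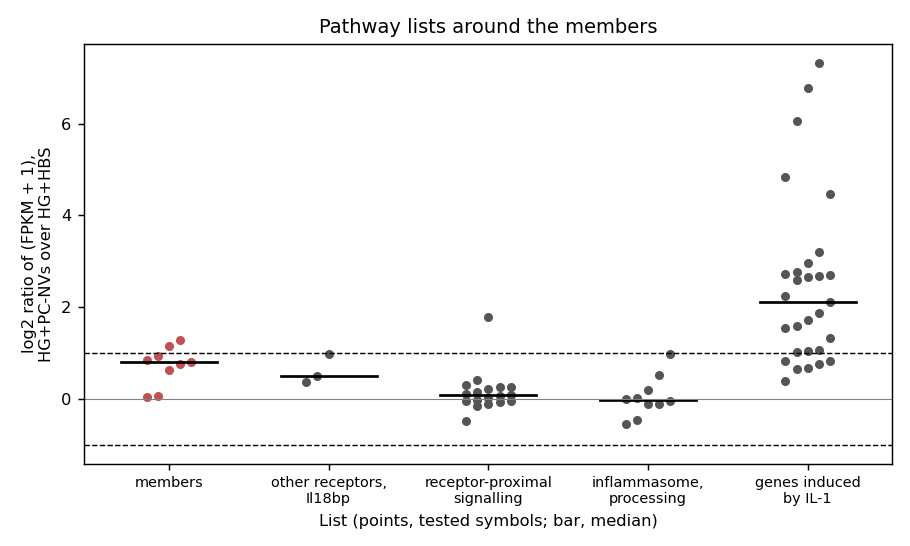
Log2 ratio of (FPKM + 1), HG+PC-NVs over HG+HBS, of the tested genes in each list (points) with the list median (bar) and 2-fold as dashed lines. The members have a median of 0.797, receptor-proximal signalling 0.074 with Irak3 alone past the line at 1.79, and the genes induced by IL-1 a median of 2.11. The first and last medians include genes that reached the filter only through HG+PC-NVs. Among genes at 1 FPKM or more in both libraries they are 0.759 and 1.59.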

How the data were processed

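RNA of 1 HG+HBS and 1 HG+PC-NVs culture was analysed. Per the methods and the submitters' processing notes, the authors selected poly(A) RNA, prepared stranded libraries, trimmed reads, aligned them with TopHat to mm10, obtained counts with BEDTools and FPKM with Cufflinks, and used edgeR in R to normalize. Versions and the annotation are not given in the sources used here. The authors deposited log2 values, read from their range as log2(normalized FPKM + 1), per transcript row.

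Rows were converted to FPKM and summed per symbol. The deposited normalization was kept, and quantile normalization between the libraries, which the methods name although the deposited libraries differ in their quantiles, was run as an alternative, beside those on scaling, pseudocount, rows, filter and fold. Symbols at 1 FPKM or more in at least one library were compared by log2 ratio with a pseudocount of 1 FPKM, and a fold above 2 was called. A single library per condition allows no p-value, and none was computed.

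The value of 1 fragment was the most frequent low value of FPKM times length over 2189 symbols with 1 GENCODE M21 transcript over 1500 nt (0.0749 in HG+HBS, 0.0864 in HG+PC-NVs). Fragments used a gene's shortest transcript that GENCODE links to RefSeq (else its shortest coding one), which gives the fewest fragments and the widest intervals. Intervals are 95% Wilson (ratios) and Poisson (levels), and the floor was 3 fragments. Coordinates are from GENCODE M21 (GRCm38), and upstream sequences from RefSeq (GRCm38.p6), where all 10 members matched.

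The members and lists were chosen with earlier results of these data known. All members and further family genes are named, and of the pathway lists those past 2-fold, at most the 6 furthest from 0, and others added after their values were seen. Calculations were tested on simulated data. The software was Python 3.11.15 with scipy 1.17.1, pandas 2.3.3, numpy 2.4.6 and, for plots, matplotlib 3.10.9.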

Additional observations from a re-analysis of the deposited data

How the results depend on the processing

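Il1a and Il1b were the members called higher, and the number lower was 0, with quantile normalization, upper-quartile scaling, median centring, a pseudocount of 0.1 FPKM, the highest row alone and no filter. The number higher was 0 with 1 FPKM required in both libraries, since neither gene was then tested, 0 past 4-fold, 7 past 1.5-fold, and 1 (Il1a) with a mean level of at least 1 FPKM, a setting chosen after seeing the data. Of 60 member ratios under alternatives, 51 stayed within their counting interval. Quantile normalization moved the log2 ratio of Il1rl1 from 0.836 to 0.598, and upper-quartile scaling of values above 0 moved 5 members by more than the counting error. The 5 of 7 members past 1.5-fold at 1 FPKM in both libraries became 0 with that scaling and 4 or 5 with each other scaling, pseudocount or row choice. Over all symbols, upper-quartile scaling gave 186 higher and 288 lower, the pseudocount of 0.1 gave 253 lower, 1.5-fold gave 687 higher and 462 lower, and 4-fold gave 75 higher and 7 lower. Scaling on rows above 0 in both libraries, counting past 1.5-fold among symbols at 1 FPKM in both, and the macrophage sum without Cd14, were also chosen after seeing the data. Of the other pathway genes, 24 were called higher, 15 past 4-fold, and 0 lower, or 1 (Prtn3) with the pseudocount of 0.1. Of all tested symbols, 2.52% were called higher. Among these 24, 23 came from the 29 tested genes induced by IL-1, a list written with results known, and 1 was Irak3. The other receptors and Il18bp (3 tested) and the inflammasome list (10 tested) gave 0. With 1 FPKM required in both libraries, 18 were called higher, against 1.91% of all such symbols. No paired analysis was possible because each condition has a single library, and for that reason no replicate could be left out. Depth limits Il1b, Il1a and Il1r2, with at most 5.10 fragments each in HG+HBS.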
